A study of Mus musculus with 4 samples.

Results

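CM4 nuclei with transferred label CM1 are cardiomyocyte nuclei that carried different names under the study's pair of labels. Each deposited nucleus had a population label and a label transferred from an earlier neonatal heart reference by Seurat, and the nuclei described here were all those with population label CM4 and transferred label CM1. They are called CM4/CM1 nuclei below, with the population label before the transferred one. There were 154 of them, among 853 CM4 nuclei and 8585 nuclei in all. They were compared with the 652 CM4/CM4 nuclei and the 5305 CM1/CM1 nuclei, which carried the same name under both labels.

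The series profiled cardiomyocyte nuclei of neonatal mouse hearts with and without Nrf1, a stress-response transcription factor, by single-nucleus RNA-seq (snRNA-seq). Mice were Nrf1fl/fl:αMHC-Cre (knockout, KO) or Nrf1fl/fl without Cre (called wildtype, WT, in the labels), all on a C57BL/6 background, and αMHC-Cre acts in cardiomyocytes. At postnatal day 3 the left anterior descending artery was tied off to cause myocardial infarction (MI), or left untied (Sham), and hearts were taken 1 day later. Tissue below the ligature, or at that level in Sham hearts, was pooled from 4 to 6 hearts for each library, and there was 1 library for each of WT-Sham, KO-Sham, WT-MI and KO-MI.

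With 1 library per group no difference between conditions has a replicate check, and none was tested. The labels of the nuclei were made from the expression of the same nuclei, so differences between CM4/CM1, CM4/CM4 and CM1/CM1 nuclei are described without a p-value. The strain field of the 4 libraries counted upward from C57BL/6 to C57BL/9. The 9 barcodes found in 2 libraries included 1 of the 154 nuclei. All intervals are 95% intervals and cover counting error only.

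Nfe2l1, which encodes Nrf1, was read first because its deletion defines the knockout. In CM1/CM1 nuclei, where counts were sufficient, its level was 61.3 CPM (the share of all UMIs, scaled to a total of 1e+06) of summed unique molecular identifiers (UMIs) in WT-Sham (interval 53.4 to 70.0), 53.8 in KO-Sham (48.0 to 59.96), 44.7 in WT-MI (38.9 to 51.1) and 57.4 in KO-MI (50.5 to 64.9). The library labelled KO-MI was thus above the library labelled WT-MI, against the genotype label. Which exons were deleted is not given in the sources used here, so a 3′ count may lie outside the deleted part and the check is limited. In CM4/CM1 nuclei Nfe2l1 had 6, 5, 1 and 2 UMIs in WT-Sham, KO-Sham, WT-MI and KO-MI, too few for a direction. Genotype names below are those of the library labels.

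Neonatal mouse cardiomyocytes still divide and mature over the days around birth. CM1 is the name of the main population of ventricular cardiomyocytes, and CM4 of a population that the study's earlier work linked to regeneration. Working cardiomyocytes are built around the sarcomere, the repeating unit of thick and thin filaments, and around the calcium release machinery that triggers contraction. Nuclear preparations capture unspliced transcripts of long genes and RNAs kept in the nucleus, together with spliced and mitochondrial RNA that adheres to the nucleus or comes from cytoplasm.

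Tnnt2 encodes cardiac troponin T of the thin filament (chromosome 1, 135836354 to 135852260, GRCm38). The study used this gene to choose cardiomyocyte clusters, so its presence is no independent check of the label. It was detected in all 154 CM4/CM1 nuclei, at 7227, 5573, 3985 and 6370 CPM in WT-Sham, KO-Sham, WT-MI and KO-MI. These levels overlapped those of CM4/CM4 nuclei, at 6955, 5962, 5108 and 6217 CPM, and lay above CM1/CM1 nuclei, at 4286, 5058, 2886 and 3328 CPM, in each library. The log2 ratio of the mean over the 4 libraries was -0.07 over CM4/CM4 and 0.57 over CM1/CM1.

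The other 2 genes given as marks of these nuclei did not mark most of them. Fgf12, a fibroblast growth factor homologous factor that binds sodium channels (chromosome 16, 28160098 to 28753068), had 78 UMIs in 2 nuclei, of which 58 were in 1 WT-MI nucleus. Its level was 0 in both Sham libraries, 869 CPM in WT-MI and 590 CPM in KO-MI, so it described 2 nuclei and not the 154. Tshz2, a zinc finger transcription factor (chromosome 2, 169633013 to 170071816), had 8 UMIs in 8 nuclei, at 32.2, 23.0, 0 and 59.0 CPM against 61.7, 71.0, 56.2 and 39.4 CPM in CM4/CM4. With every nucleus thinned to 1000 UMIs, Tshz2 was seen in 1.30% of CM4/CM1 nuclei (interval 0.158 to 4.61), 5.57% of CM4/CM4 (3.93 to 7.63) and 0.999% of CM1/CM1 (0.749 to 1.31). The same shares without thinning were 5.19%, 10.3% and 2.92%. The CM4/CM1 nuclei are therefore named here by their labels alone.

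The share of CM4 nuclei that carried the transferred label CM1 differed between libraries. It was 14.6% in WT-Sham (28 of 192 nuclei, interval 9.91 to 20.4), 25.6% in KO-Sham (90 of 351, 21.2 to 30.5), 13.5% in WT-MI (26 of 192, 9.04 to 19.2) and 8.47% in KO-MI (10 of 118, 4.14 to 15.0). KO-Sham alone supplied 90 of the 154 nuclei. Among nuclei with a transfer score of 0.5 or more the shares were 11.7% (7.41 to 17.4), 21.1% (16.6 to 26.2), 10.5% (6.32 to 16.03) and 5.31% (1.97 to 11.2), and the interval of KO-Sham then overlapped that of WT-Sham. Of the remaining CM4 nuclei 652 had transferred label CM4, 26 CM2 and 21 CM3. All 853 CM4 nuclei belonged to the same Seurat cluster. In the other deposited clustering they shared a cluster with 999 CM1 nuclei of another Seurat cluster.

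The transfer scores placed these nuclei between the labels. Each score is a fraction from 0 to 1, the 5 scores of a nucleus sum to 1, and the largest sets the label. The median CM1 score was 0.571, 0.555, 0.544 and 0.525 in WT-Sham, KO-Sham, WT-MI and KO-MI, against 0.877, 0.832, 0.843 and 0.837 in CM1/CM1 nuclei. CM4 was the label with the next highest score in 101 of the 154 nuclei. Over all CM4/CM1 nuclei of each library the median CM4 score was 0.226, 0.230, 0.149 and 0.187. The CM1 score was below 0.5 in 47 nuclei and at least 0.8 in 18. At the boundary the closest nucleus inside had scores of 0.441128 for CM1 and 0.441014 for CM4, and the closest outside had 0.448642 and 0.457169.

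CM4/CM1 nuclei were shallow, as CM4/CM4 nuclei were. Their median depth was 1966, 1805.5, 2505.5 and 2845.5 UMIs per nucleus in WT-Sham, KO-Sham, WT-MI and KO-MI, with a range of 1004 to 7389 over all of them. CM4/CM4 nuclei had medians of 1689.5, 1870.5, 1692 and 2364 UMIs, and CM1/CM1 nuclei 3730.0, 2653, 4104 and 4038.5. Their depth thus lay below CM1/CM1 in 4 of 4 libraries, and above CM4/CM4 in all but KO-Sham. The median number of genes detected was 1056.5, 990.5, 1227.5 and 1386. After thinning to 1000 UMIs the medians became 614, 629.5, 629 and 652 genes, against 605, 627.5, 627 and 633.5 in CM4/CM4 and 651, 638, 635 and 641 in CM1/CM1, so the classes lay close together in gene number at equal depth.

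**Figure D1:**
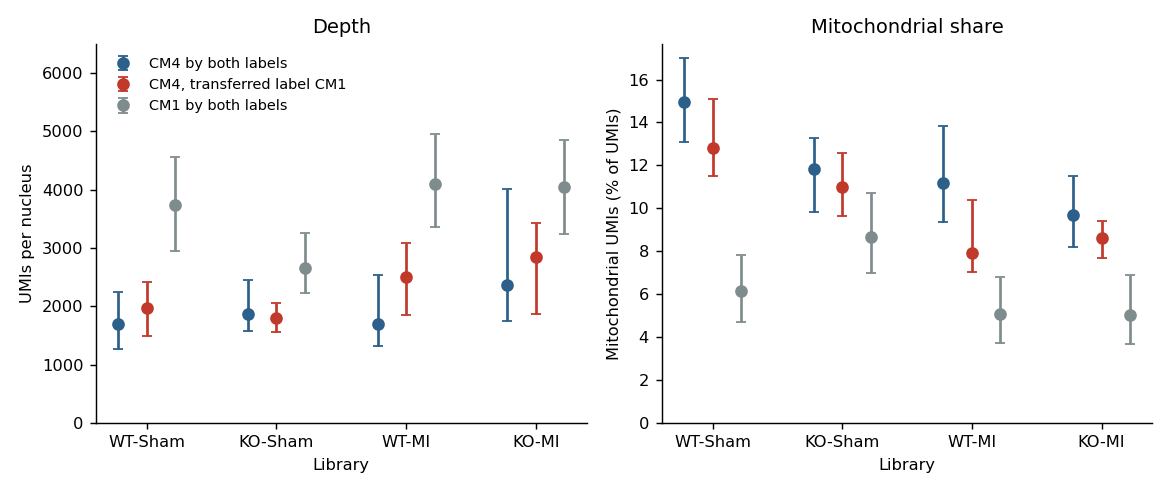
Median UMIs per nucleus (left) and median mitochondrial share of UMIs in percent (right) for CM4/CM4, CM4/CM1 and CM1/CM1 nuclei in each library, with bars from the lower to the upper quartile over nuclei. CM4/CM1 nuclei sit near CM4/CM4 in depth, between 1805.5 and 2845.5 UMIs, and between the other 2 classes in mitochondrial share.

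The share of UMIs from the mitochondrial genome was intermediate in every library. Its median was 12.8%, 11.01%, 7.92% and 8.60% in CM4/CM1 nuclei of WT-Sham, KO-Sham, WT-MI and KO-MI. CM4/CM4 nuclei had 15.0%, 11.8%, 11.2% and 9.70%, and CM1/CM1 nuclei 6.13%, 8.66%, 5.08% and 5.04%. The order was the same in 4 of 4 libraries, with the narrowest steps in KO-Sham. The summed UMIs behind the values below were 62130, 173875, 66756 and 33911 for CM4/CM1, so KO-MI rests on 10 nuclei and the fewest UMIs.

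To place the nuclei on the axis between both classes, genes at least 2-fold higher or lower in CM4/CM4 than in CM1/CM1 were chosen in the Sham libraries and read in the MI libraries, and the reverse, with no CM4/CM1 nucleus used in the choice. The 1417 genes higher in CM4/CM4 in Sham took 217179 CPM in CM4/CM1 of WT-MI, between 313873 in CM4/CM4 and 115525 in CM1/CM1. Counting CM1/CM1 as 0% and CM4/CM4 as 100%, CM4/CM1 stood at 51.3% in WT-MI and 85.9% in KO-MI. The 1878 genes chosen in MI put them at 75.5% in WT-Sham and 59.7% in KO-Sham. Genes lower in CM4/CM4 gave 56.8%, 83.7%, 80.7% and 67.8% in WT-MI, KO-MI, WT-Sham and KO-Sham. The nuclei were thus closer to CM4/CM4 than to CM1/CM1 in each library, and least clearly so in WT-MI. With 4-fold in place of 2-fold to choose the higher genes, the mean place was 45.5% in the MI libraries and 45.3% in the Sham libraries, so the nearer class depends on that choice. Since the transferred label read the expression of the same nuclei, an intermediate place is a description of the label and not an independent result.

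Most single nuclei were intermediate too. For the genes higher in CM4/CM4, 128 of 154 nuclei had a share of UMIs between the medians of CM4/CM4 and CM1/CM1 in their own library, 24 lay beyond the CM4/CM4 median and 2 beyond the CM1/CM1 median. For the genes lower in CM4/CM4 the numbers were 132, 19 and 3. In WT-MI the median share of the higher genes was 21.5% against 31.3% and 11.4%, and in KO-Sham 30.6% against 35.2% and 22.3%. The 156 CM1 nuclei with transferred label CM4, the opposite disagreement, had medians of 17.2% and 29.0% in those libraries, on the CM1/CM1 side of CM4/CM1.

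**Figure D2:**
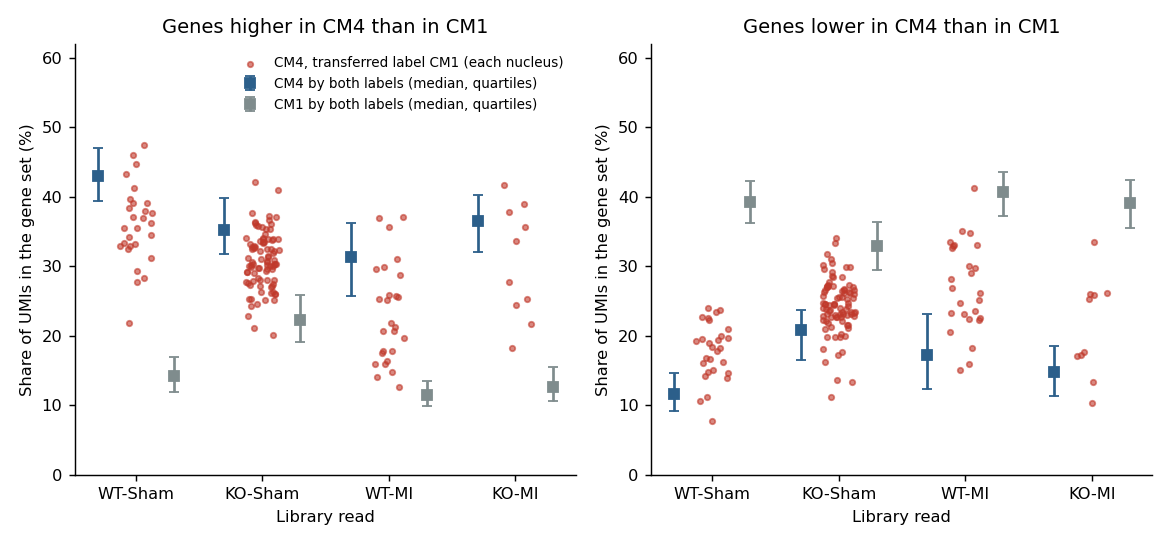
Share of each CM4/CM1 nucleus's UMIs (percent, vertical axis) in genes higher (left) or lower (right) in CM4/CM4 than in CM1/CM1, by library, with genes chosen in the libraries of the other surgery. Squares are the medians of CM4/CM4 and CM1/CM1 with quartiles; 128 (left) and 132 (right) of the 154 points lie between the medians of their own library.

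Gene by gene, few differences between CM4/CM1 and CM4/CM4 met the rule for a call. A gene was called when the mean over libraries differed at least 2-fold, the direction was the same in 4 of 4 libraries and it had 50 or more UMIs over both classes. Of 5204 genes 65 were higher (1.25%) and 215 lower (4.13%). At these counts the rule misses many 2-fold differences, so few calls do not show that the classes are alike. With few UMIs in CM4/CM1 the rule calls more genes lower than higher also where nothing differs, so the numbers in each direction were not compared. Most of the lower calls were genes with few UMIs: among the 2609 genes at a mean of 60 CPM or more, a minimum added after the data were seen, 37 were higher (1.42%) and 40 lower (1.53%). Scaling by TMM, the trimmed mean of M-values, moved the median of all tested genes from -0.05 to -0.21 (log2) and the calls to 26 higher and 305 lower.

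Fgf14 and Thsd4 had the highest called ratios over CM4/CM4. Fgf14, a relative of Fgf12 (chromosome 14, 123977907 to 124677127, with 7 annotated genes overlapping it), was at 274, 167, 44.9 and 88.5 CPM against 30.8, 69.0, 28.1 and 29.6 CPM, a log2 ratio of 1.86. Thsd4, an extracellular matrix protein of microfibrils (chromosome 9, 59966931 to 60522046), was at 64.4, 97.8, 180 and 295 CPM against 15.4, 31.6, 43.7 and 92.0 CPM, a log2 ratio of 1.80. The same direction in 4 of 4 libraries was a condition of the call for both genes. Against CM1/CM1, at 329, 272, 185 and 143 CPM, Fgf14 was lower in each library, while Thsd4 was above the CM1/CM1 levels of 74.6, 68.1, 163 and 141 CPM in all but WT-Sham.

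Sorbs2os, a noncoding transcript antisense to the Z-disc gene Sorbs2, had more UMIs (140). Its levels of 145, 391, 839 and 206 CPM exceeded those of CM4/CM4, at 21.6, 256, 200 and 112 CPM, by 1.42 on the log2 scale. Chrm2, the muscarinic acetylcholine receptor of the heart, was singled out after its values were seen, as the most abundant gene called at 60 CPM or more. It had 161 UMIs, at 193, 391, 704 and 1003 CPM against 123.3, 312, 269 and 319 CPM. The others among the 10 highest were 2310014F06Rik, Lrrc8d, Gm36037, Plekha6, Gm12353, Meg3 and Hsd17b7, with log2 ratios between 1.43 and 1.74. Sorbs2os overlaps Sorbs2, 2310014F06Rik overlaps Tead1, and Gm12353 overlaps Rmdn1 and Wwp1 in the annotation, so their reads may not be told apart from those of the partner.

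The genes lowest against CM4/CM4 included regulators of blood vessel cells. Sox18, a transcription factor of endothelial development (chromosome 2, 181669836 to 181671640), had 2 UMIs against 60, and Kdr, the main receptor for vascular endothelial growth factor (chromosome 5, 75932827 to 75978458), had 3 against 91. Fli1, an ETS factor of endothelial and blood cells, had 4 against 100, and Ldb2, a LIM domain cofactor, had 2 against 74. The same direction in all 4 libraries is a condition of the call and adds nothing to it. The CM4/CM1 counts of these 4 genes were too small to size the difference well. Ccnd1, the cyclin D1 of the G1 phase, had 5 UMIs against 109. The other 5 of the 10 lowest were Ctsh, Commd6, 0610009B22Rik, Cthrc1 and Taf11, with 1 to 4 UMIs in CM4/CM1.

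Cd34 and Ebf1, expressed by stromal and vascular cells, had 12 and 11 UMIs and were also named after their values were known. Cd34, a surface protein of endothelial and progenitor cells, was at 32.2, 46.0, 29.96 and 0 CPM against 139, 112, 116 and 78.8 CPM, a log2 ratio of -2.04. Ebf1, a transcription factor of fibroblasts, pericytes and B cells, was at 48.3, 34.5, 29.96 and 0 CPM against 105, 103, 87.5 and 154 CPM, a log2 ratio of -1.99. Neither reached the lowest CM4/CM4 library in any CM4/CM1 library.

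Calcium handling genes stood between both classes. The 14 genes summed to 23982, 26473, 27114 and 20554 CPM in CM4/CM1 of WT-Sham, KO-Sham, WT-MI and KO-MI. CM4/CM4 nuclei had 18362, 22988, 17662 and 17130 CPM, and CM1/CM1 nuclei 43466, 36853, 45108 and 42608 CPM. The sum was 0.37 above CM4/CM4 and 0.78 below CM1/CM1 on the log2 scale, each in 4 of 4 libraries. Of the 14 genes 12 lay above CM4/CM4, with none called, and 12 lay below CM1/CM1, with Cacna1c and Camk2d called. Over all 12088 genes tested against CM1/CM1, 4.35% were called higher and 9.47% lower, and the counts of list members against CM1/CM1 are to be read against these shares.

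Ryr2, the calcium release channel of the sarcoplasmic reticulum, was at 4812, 5251, 4569 and 3096 CPM against 2824, 4315, 2628 and 2158 CPM in CM4/CM4 and 9707, 8163, 7650 and 7035 CPM in CM1/CM1. Slc8a1, the sodium-calcium exchanger, was 0.59 above CM4/CM4 and -0.96 relative to CM1/CM1 (log2). Cacna1c, the pore of the L-type calcium channel, gave 0.39 and -1.03. Ryr2, Slc8a1 and Cacna1c kept the same order in each library. Pln, the small inhibitor of the calcium pump, went the other way, at -0.33 and 0.25, and the pump gene Atp2a2 was at -0.14 and -0.03, so the list was not uniform.

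The sum of nuclear long RNAs showed the same order. The list summed to 35699, 67031, 88996 and 55174 CPM in CM4/CM1 against 21765, 49272, 48768 and 37471 CPM in CM4/CM4 and 100284, 92482, 125832 and 123218 CPM in CM1/CM1. Malat1, an abundant noncoding RNA of nuclear speckles (chromosome 19, 5795690 to 5802672), made up nearly all of it, and its log2 ratios were 0.65 and -0.85. All 6 members with enough UMIs lay above CM4/CM4, and Meg3, an imprinted noncoding RNA, was called higher at 113, 57.5, 854 and 295 CPM against 40.1, 51.3, 169 and 230 CPM. Of the 84 Meg3 UMIs 35 came from 1 nucleus. Against CM1/CM1 the members were divided, with 3 of 7 above 0.

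Sarcomere genes did not separate CM4/CM1 from CM4/CM4. The 24 genes summed to 67005, 58755, 50902 and 80416 CPM against 72034, 63186, 61668 and 73093 CPM, a log2 ratio of -0.07 with 10 of 24 genes above 0 and none called. They stood above CM1/CM1 by 0.47, where 7 genes were called higher (Actc1, Csrp3, Myl2, Myl3, Tcap, Tnni3 and Tpm1) and Cmya5 lower. Myl2, the ventricular regulatory light chain, was at 7887, 7620, 4000 and 8050 CPM against 3117, 4991, 2364 and 2748 CPM in CM1/CM1. Ttn, the giant elastic filament encoded by a long gene, went against the list, with log2 ratios of 0.16 over CM4/CM4 and -0.68 over CM1/CM1.

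**Figure D3:**
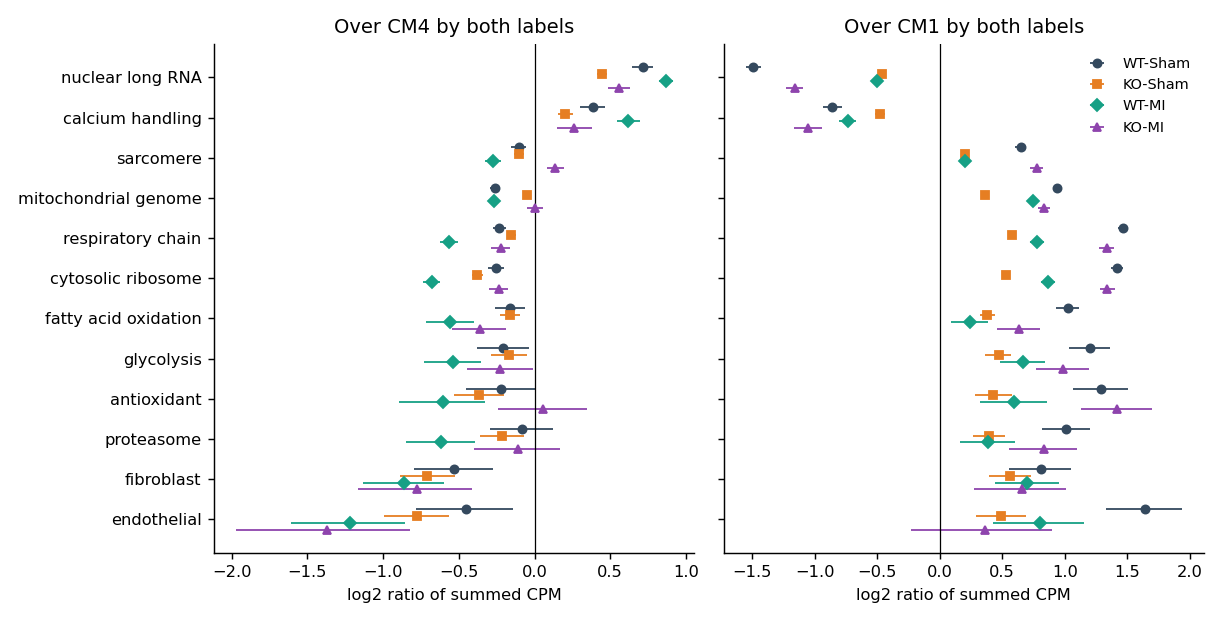
log2 ratio of the summed CPM of 12 gene lists (rows) in CM4/CM1 nuclei over CM4/CM4 (left) and over CM1/CM1 (right), with a point for each library and bars for 95% counting intervals. Nuclear long RNA and calcium handling lie above 0 on the left and below 0 on the right in 4 of 4 libraries, while respiratory chain, cytosolic ribosome, fibroblast and endothelial genes lie below 0 on the left and above 0 on the right.

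Respiratory chain genes were ordered the other way. The 80 nuclear genes summed to 82359.6, 78602.4, 39022.7 and 67441 CPM in CM4/CM1, against 96734, 87426, 57622 and 78741 CPM in CM4/CM4 and 29799.7, 52560.1, 22714 and 26720.1 CPM in CM1/CM1. The sum was below CM4/CM4 by 0.26 and above CM1/CM1 by 1.02 on the log2 scale, in 4 of 4 libraries each. No gene of 80 was called against CM4/CM4, although 78 lay below 0, and 44 of 80 were called higher than in CM1/CM1. Cox6c, a subunit of cytochrome c oxidase, was at 3718, 2950.4, 1378 and 2271 CPM against 1032, 1873, 745 and 946 CPM in CM1/CM1. The 13 genes of the mitochondrial genome lay on the same sides, at -0.15 and 0.70, and mt-Nd6 was the member called lower than in CM4/CM4.

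Cytosolic ribosomal protein genes followed the same pattern. They summed to 53774, 43157, 43247 and 67559 CPM against 64259, 56107.5, 69238 and 79556 CPM in CM4/CM4, and 0 of 76 tested genes lay above 0. Over CM1/CM1 the sum was 1.05 higher (log2), with 50 of 77 genes called higher. Genes of fatty acid oxidation (-0.26 over CM4/CM4 and 0.61 over CM1/CM1), glycolysis (-0.28 and 0.83), the proteasome (-0.25 and 0.66) and antioxidant defence (-0.25 and 0.95) had the same signs. None of the genes of those 4 lists was called against CM4/CM4. Against CM1/CM1, 1 of 17 fatty acid oxidation genes was called higher and 1 lower (Ppara), close to the shares over all genes. Of the other 3 lists 5 of 17, 8 of 36 and 4 of 17 genes were called higher, and the antioxidant gene Nqo1 lower. The share of mitochondrial UMIs moved with all of these lists. Genes of under 10 kb in the genome, at a mean of 60 CPM or more, also had these signs, at -0.28 and 0.99. The part of mitochondrial share or gene length in the lists was not tested.

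Endothelial genes were lower than in CM4/CM4 in every library. The list summed to 1529, 1254, 989 and 826 CPM against 2096, 2144, 2306 and 2135 CPM, and to 491, 891, 567 and 641 CPM in CM1/CM1, giving log2 ratios of -0.92 and 0.83. Of 12 genes with enough UMIs 6 were called lower than in CM4/CM4 (Kdr, Tek, Egfl7, Eng, Mecom and Esam), against 4.13% of all tested genes. Their counts were low, where the rule favours lower calls. Over CM1/CM1 2 of 16 were called higher (Pecam1 and Flt1), against 4.35% of all tested genes. The KO-MI value over CM1/CM1 was 0.36, with an interval from -0.23 to 0.90 that includes 0. Fabp4, a fatty acid binding protein of capillary endothelium, supplied 283 of the 407 UMIs. Defining markers were sparse, with 17 UMIs for Pecam1, 13 for Cdh5 and 2 for Vwf. With nuclei thinned to 1000 UMIs, 82.1%, 67.8%, 73.1% and 50% of CM4/CM1 nuclei had at least 1 UMI of the list, against 77.4%, 79.9%, 77.5% and 85.8% of CM4/CM4, so this share was not lower in WT-Sham.

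Fibroblast genes lay in the same order. They summed to 2237, 1743, 1977 and 1887 CPM against 3234, 2847, 3593 and 3238 CPM in CM4/CM4 and 1279, 1178, 1217 and 1199 CPM in CM1/CM1, log2 ratios of -0.72 and 0.69 with each library on the same side. Col3a1, a fibrillar collagen, was at 483, 564, 434 and 472 CPM against 872, 862, 937 and 897 CPM in CM4/CM4, with no overlap. Fbn1 and Dpt were called lower. Myeloid genes were at -0.79 over CM4/CM4, lower in 4 of 4 libraries, and at 0.26 over CM1/CM1, where TMM scaling gave -0.04. The thinned share of nuclei with a myeloid UMI was 10.7%, 4.44%, 38.5% and 10.0% in CM4/CM1 of WT-Sham, KO-Sham, WT-MI and KO-MI, against 18.7%, 12.4%, 43.0% and 30.2% in CM4/CM4 and 9.65%, 7.07%, 21.9% and 15.3% in CM1/CM1. It was below CM4/CM4 in each library and on either side of CM1/CM1.

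Other cell type lists held few UMIs. Endocardial genes (53 UMIs) gave log2 ratios of 0.22 over CM4/CM4 and -0.01 over CM1/CM1, mural genes (157 UMIs) 0.44 and 0.62, epicardial genes (23 UMIs) -0.17 and 0.91, and neural crest and Schwann genes (6 UMIs) 0.50 and 0.35. Their directions depended on 1 library in at least 1 comparison each and are not read further. Xist and a Y-linked gene were seen together in 0 of 154 thinned nuclei, which allows a share of up to 2.37%, against 0.929% in CM4/CM4 and 0.999% in CM1/CM1. Y chromosome genes as a list were at 0.21 and -0.83, and pools of hearts of both sexes cannot be separated here from expression. The part of RNA from other cells in any of these results was not tested.

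Against CM1/CM1 the CM4/CM1 nuclei differed more widely. Of 12088 genes 526 were called higher (4.35%) and 1145 lower (9.47%), and at a mean of 60 CPM or more 283 (10.2%) and 250 (8.99%) of 2781. TMM scaling moved the median of all tested genes from -0.08 to -0.31 and the calls to 192 higher and 1757 lower, so the balance of directions depends on scaling, and the limit on low counts given for CM4/CM4 holds here too. The 10 highest were Tagln, Hba-a1, Hba-a2, Hbb-bs, Hfe, Cyyr1, Bmp6, Dpp4, Dkk3 and Nppa, with log2 ratios from 2.38 to 3.35. The 10 lowest, from Asb7 to Zfp846, had 1 UMI each in CM4/CM1 and are not sized.

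Nppa, the atrial natriuretic peptide and a marker of cardiac strain, was at 531, 483, 4329 and 19256 CPM against 149, 262, 1957 and 2367 CPM in CM1/CM1. In KO-MI 482 of its 653 UMIs came from 1 nucleus, and without that library the log2 ratio over CM1/CM1 was 1.17 in place of 2.38. The list of atrial genes followed Nppa, at 0.72 over CM4/CM4, or -0.19 without KO-MI, and at 2.28 over CM1/CM1, or 1.09 without KO-MI. The injury list gave 0.39 over CM4/CM4, or -0.03 without KO-MI, and 1.31 over CM1/CM1. By library the injury list was at 0.71, 0.42, 0.94 and 1.72 over CM1/CM1 in WT-Sham, KO-Sham, WT-MI and KO-MI, so 1.31 also leans on KO-MI. The list of genes of immature cardiomyocytes stood 1.02 above CM1/CM1 with 4 of 8 called (Acta1, Acta2, Myl9 and Tagln) and at -0.14 against CM4/CM4. Over CM1/CM1 it was at 0.89, 0.18, 0.86 and 1.62 in WT-Sham, KO-Sham, WT-MI and KO-MI, so the value leans on KO-MI. Its members Tnni1, Myh7, Myl7 and Myl4 were not called. Acta2, smooth muscle actin of the embryonic heart, was at 306, 311, 374 and 1003 CPM against 139, 258, 210 and 298 CPM in CM1/CM1. In thinned nuclei of KO-Sham it was seen in 23.3% of CM4/CM1 and 23.2% of CM1/CM1.

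From the 1145 genes called lower than in CM1/CM1, 3 were singled out after their values were seen. They do not stand for genes of the working cardiomyocyte, since the sarcomere list went the other way, at 0.47, with 7 genes called higher and 1 lower. Ctnna3, an alpha-catenin of the intercalated disc, was at 2092, 3853, 2142 and 2005 CPM against 7359, 6027, 6484 and 5997 CPM. Erbb4, the neuregulin receptor, was at 789, 920, 629 and 236 CPM against 1913, 1564, 1447 and 1426 CPM. Ppargc1a, a coactivator of mitochondrial biogenesis, was at 177, 380, 210 and 0 CPM against 625, 589, 518 and 492 CPM. None of these levels overlapped CM1/CM1, but the genes were picked with these values known.

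The length of a gene in the genome ran through both comparisons. Over CM4/CM4, the 37 genes called higher at 60 CPM or more had a median span of 133 kb and the 40 called lower 16.5 kb, against 39.2 kb for all 2609. Over CM1/CM1 the 283 called higher had a median span of 4.91 kb and the 250 called lower 130 kb, against 57.3 kb for all 2781. Spans came from GENCODE release M21 on GRCm38, for genes with a unique entry.

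Binned by span, the ratios changed steadily and in opposite directions. Over CM4/CM4 the median log2 ratio was -0.28 for 595 genes under 10 kb, -0.17 for 542 genes of 10 to 30 kb, 0.10 for 746 genes of 30 to 100 kb, where TMM scaling gave -0.05, and 0.32 for 709 genes over 100 kb. Over CM1/CM1 the same bins gave 0.99, 0.41, -0.34 and -0.63. Thinning to 1000 UMIs left the order as it was, at -0.25, -0.21, 0.08 and 0.29 over CM4/CM4. Genes are not independent replicates, and these medians are descriptions. The mitochondrial share ran with span in both comparisons, and its part was not tested. Respiratory chain genes (-0.26 and 1.02) and cytosolic ribosome genes (-0.37 and 1.05) lay near the bin under 10 kb. Calcium handling genes had list sums of 0.37 and -0.78, beside 0.32 and -0.63 in the bin over 100 kb. List sums weight abundant genes and are not the same measure as the bin medians. As a median over its genes the calcium handling list was at 0.41 and -0.39, and the latter was nearer the bin of 30 to 100 kb. For respiratory chain and cytosolic ribosome genes such medians were -0.26 and 1.03, and -0.37 and 1.04. Malat1, of short span, had the signs of long genes. The part of span in the gene lists was not tested.

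**Figure D4:**
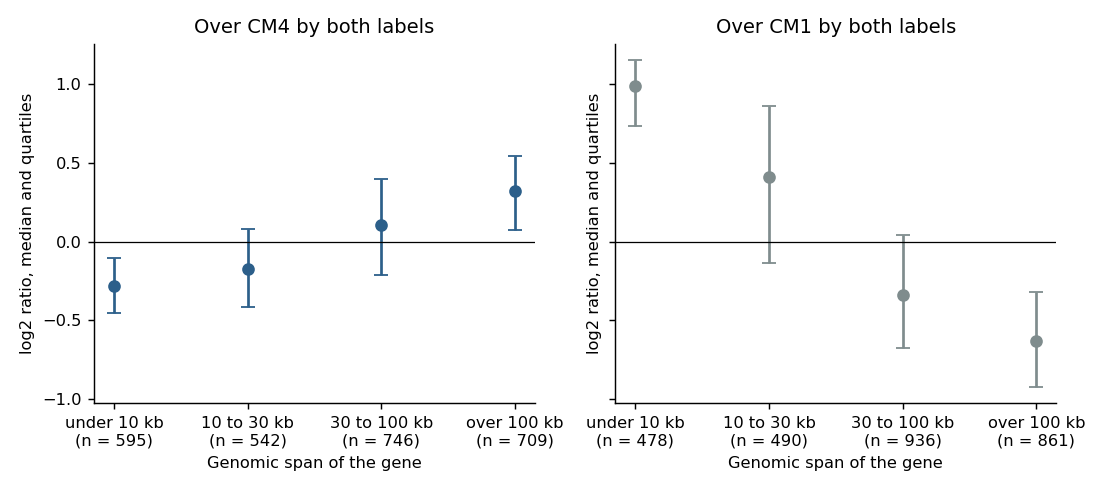
Median log2 ratio of CM4/CM1 nuclei over CM4/CM4 (left) and over CM1/CM1 (right) for genes with a mean of 60 CPM or more, grouped by their genomic span in kilobases, with bars from the lower to the upper quartile over genes. The medians run from -0.28 to 0.32 on the left and from 0.99 to -0.63 on the right.

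Hemoglobin genes set a few of the nuclei apart. The 5 red blood cell genes summed to 38532, 24046, 16673 and 2448 CPM in CM4/CM1 against 8145, 2235, 7086 and 3672 CPM in CM4/CM4, a log2 ratio of 1.95. The excess came from 9 nuclei in which these genes took 5% or more of all UMIs, from 10.2% to 44.5%, while the next highest nucleus had 1.06%. They held 89.2% of the red blood cell UMIs of the 154 nuclei, and without them the ratio was -0.52 over CM4/CM4 and 0.52 in place of 2.96 over CM1/CM1.

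Of those 9 nuclei 1 was in WT-Sham, 6 in KO-Sham, 2 in WT-MI and none of 10 in KO-MI. Their share was 5.84% of CM4/CM1 nuclei (interval 2.71 to 10.8), against 2 of 652 CM4/CM4 nuclei (0.307%, 0.0372 to 1.10), 14 of 5305 CM1/CM1 nuclei (0.264%) and 31 of 8585 nuclei in all. It was 1 of 47 CM4 nuclei with other transferred labels (2.13%, 0.0539 to 11.3) and 2 of 156 CM1 nuclei with transferred label CM4 (1.28%, 0.156 to 4.55), whose intervals overlapped that of CM4/CM1. Each of the 9 had 5 to 26 Tnnt2 UMIs, and their other UMIs held a median of 5.88% from sarcomere genes. Their median CM1 score was 0.784 against 0.548 in the other 145 nuclei, and their median depth 2388 against 1876 UMIs. Over all CM4/CM1 nuclei the median share was 0.322%, 0.168%, 0.564% and 0.244% in the 4 libraries, against 0.465%, 0.166%, 0.730% and 0.381% in CM4/CM4, so the typical nucleus did not carry the excess. The part of red cell RNA in these droplets was not tested.

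**Figure D5:**
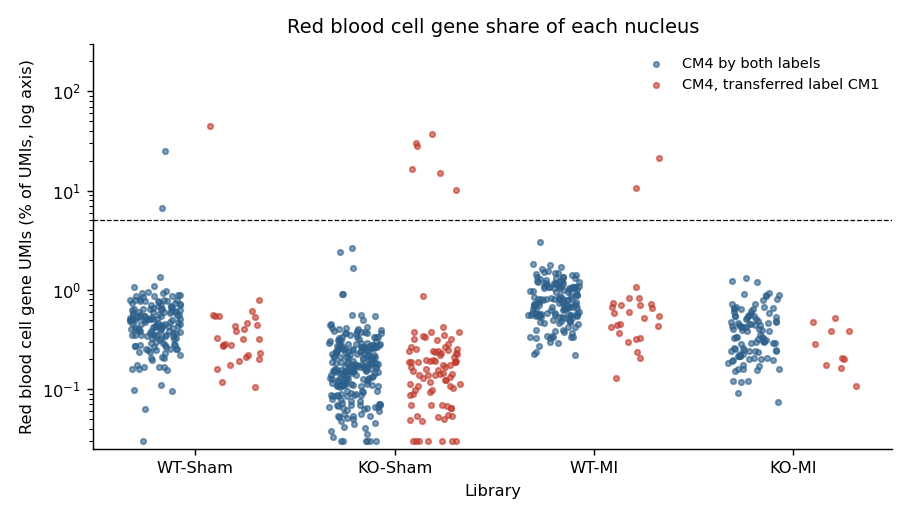
Percent of UMIs from 5 red blood cell genes in each CM4/CM4 and CM4/CM1 nucleus by library, on a log axis, with values below 0.03% drawn at 0.03% and a dashed line at 5%. The 9 CM4/CM1 nuclei above the line (1, 6, 2 and 0 by library) are clear of the other CM4/CM1 nuclei, whose highest value is 1.06%, and 2 CM4/CM4 nuclei of WT-Sham also lie above it.

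Single nuclei also decided a few other genes. Of 2707 genes with 20 or more UMIs in CM4/CM1 nuclei, 6 had more than 50% of their UMIs in 1 nucleus. Hspa1a, an inducible heat shock protein, had 154 of 155 UMIs in 1 WT-MI nucleus, which also held 96 of 98 Hspa1b and 78 of 115 Hsp90aa1 UMIs. Tagln had 23 of 36 UMIs in 1 KO-MI nucleus and Ryr3 19 of 24 in 1 WT-MI nucleus. The early response list (1.45 over CM4/CM4 and 2.60 over CM1/CM1) and the list of genes that led CM4 in an earlier look at these data (0.64 and 3.68) rested on WT-MI: without it they were at -0.55 and -0.91 over CM4/CM4, and at 0.59 and 2.27 over CM1/CM1. The second of these lists was chosen on these samples and is not independent evidence. Within it Ldb2, Fli1, Ebf1 and Ptprb were called lower than in CM4/CM4.

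Cell cycle genes were sparse and lay below CM4/CM4. The list had 79 UMIs, at 177, 236, 269.6 and 265 CPM against 484, 345, 378 and 364.5 CPM in CM4/CM4 and 113, 174, 112 and 126 CPM in CM1/CM1, log2 ratios of -0.73 and 0.85. In thinned nuclei 16.9% had a UMI of the list (11.3 to 23.8), against 27.2% of CM4/CM4 (23.8 to 30.9) and 13.2% of CM1/CM1 (12.3 to 14.2). These shares pool the libraries, and KO-Sham supplied 90 of the 154 CM4/CM1 nuclei but 234 of 646 in CM4/CM4. Within KO-Sham they were 16.7% (9.64 to 26.0), 20.1% (15.1 to 25.8) and 16.4%. The CM4/CM1 share was below CM4/CM4 in each library, with the narrowest gap in KO-Sham. Mki67, the Ki-67 proliferation antigen, had 7 UMIs in 7 nuclei, and Ccnb2, a mitotic cyclin, had 3 UMIs. DNA replication genes were at -0.11 and 0.52. No member was called in that list against CM4/CM4, and Cenpf was the cell cycle gene called lower.

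The genes that the study names for Nrf1 gave no called difference from CM4/CM4 where they could be tested. Psmd1, a proteasome subunit, was at 32.2, 63.3, 135 and 88.5 CPM against 86.3, 74.97, 116 and 52.5 CPM. Sod2, the mitochondrial superoxide dismutase, was at 451, 489, 374 and 472 CPM against 647, 543, 353 and 466 CPM, and was above CM1/CM1, at 205, 353, 201 and 212 CPM, in each library. Cat, which encodes catalase, had 19 UMIs, and Hmox1, the inducible heme oxygenase, had 1 UMI against 33 in CM4/CM4, under the minimum of 50.

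Injury genes were higher after MI in both genotypes. The 7 injury genes summed to 547 CPM in WT-Sham, 633 in KO-Sham, 4943 in WT-MI and 9319 in KO-MI. MI over Sham was 3.18 (interval 2.66 to 3.73) in WT and 3.88 (3.56 to 4.21) in KO on the log2 scale, and 2.95 in KO when the nucleus with the most of these UMIs was left out of each library. CM4/CM4 nuclei had 657, 631, 4968 and 5501 CPM and CM1/CM1 nuclei 334, 474, 2582 and 2821 CPM, so the direction was the same in all 3 classes. For background, 151 of 952 genes (15.9%) were at least 2-fold higher and 156 (16.4%) lower in WT-MI than in WT-Sham, and 153 (9.24%) and 288 (17.4%) of 1655 in KO.

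Single genes of the injury response had the 5 highest MI over Sham ratios. The same direction in both genotypes was a condition of that ranking. Ankrd1, a stretch-responsive repeat protein, was at 177, 236, 2577 and 2860.4 CPM, with MI over Sham of 3.86 (2.99 to 4.89) in WT and 3.60 (3.06 to 4.16) in KO. It was seen in 24 of 26 WT-MI nuclei and all 10 KO-MI nuclei, against 9 of 28 and 21 of 90 in Sham. Nppb, the B-type natriuretic peptide, gave 3.58 (2.55 to 4.83) and 4.78 (4.22 to 5.38), and Nppa 3.03 (2.50 to 3.59) and 5.32 (4.99 to 5.66). In KO-MI 117 of 166 Nppb UMIs and 482 of 653 Nppa UMIs came from 1 nucleus, so the KO values lean on it. Ccn2, a matricellular growth factor, and Xirp2, a protein of the intercalated disc, were the other 2 of the 5 highest, with 1 to 3 UMIs in each Sham library.

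A gene of fatty acid oxidation was among the 5 lowest MI over Sham ratios, where the same direction in both genotypes was again a condition. Acadm, a dehydrogenase of medium-chain fatty acids, had 33, 50, 7 and 1 UMIs in WT-Sham, KO-Sham, WT-MI and KO-MI, log2 ratios of -2.34 (-3.76 to -1.14) in WT and -3.29 (-8.62 to -0.74) in KO. Atcayos, Mmp15 and Mrpl34 were also among the 5 lowest. The fatty acid oxidation list was at 15564, 13901, 5588 and 8434 CPM, that is -1.48 (-1.65 to -1.30) in WT and -0.72 (-0.90 to -0.54) in KO. It was lower after MI in the other classes too, at 17403, 15574, 8233 and 10850.5 CPM in CM4/CM4. CM1/CM1 nuclei had 7662, 10676, 4727.5 and 5448 CPM, with the larger fall in KO. The respiratory chain list gave -1.08 (-1.15 to -1.01) in WT and -0.22 (-0.29 to -0.16) in KO, against -0.75 and -0.15 in CM4/CM4 and -0.39 and -0.98 in CM1/CM1, where the lower value was in KO. The KO value in CM4/CM1 was -0.35 after thinning, -0.74 with TMM scaling and -0.46 without the nucleus with most of these UMIs in each library.

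The comparison of genotypes was made within each surgery. For the respiratory chain, KO over WT was -0.07 (-0.11 to -0.02) in Sham, where TMM scaling gave 0.18, and 0.79 (0.71 to 0.87) in MI, against -0.15 and 0.45 in CM4/CM4 and 0.82 and 0.23 in CM1/CM1. For the injury list it was 0.21 (-0.36 to 0.81) in Sham and 0.91 (0.69 to 1.14) in MI, but -0.05 in MI without the nucleus with most of its UMIs in each library. The background was 212 of 1851 genes (11.5%) 2-fold higher and 60 (3.24%) lower in Sham, and 108 of 735 in each direction (14.7%) in MI.

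Genes named for keeping the same direction in both surgeries had few UMIs. Mtus2, a microtubule-associated protein, had 5, 36, 7 and 10 UMIs in WT-Sham, KO-Sham, WT-MI and KO-MI, with KO over WT of 1.36 (0.01 to 3.07) in Sham and 1.49 (-0.05 to 3.12) in MI. Cops9, Tubb2a, Hp1bp3 and Gm47283 were the other 4 of the 5 highest in both surgeries, Gm47283 lying on the Y chromosome, and Mpped2, Pfkm, Dlgap4, Rnf150 and Mpp6 the 5 lowest. Mpped2, a metallophosphoesterase, had 31, 22, 8 and 1 UMIs, of which 19 in WT-Sham came from 1 nucleus. The interval in MI included 0 for each of these 10 genes except Mpp6, which had 12 UMIs in WT-MI and 0 in KO-MI. With 1 library a group, the genotype and the pool of hearts cannot be told apart. The pools differed in sex mix: in thinned nuclei Xist was seen in 14.3%, 44.4%, 23.1% and 40% of CM4/CM1 and in 7.82%, 39.2%, 44.9% and 64.7% of CM1/CM1, in WT-Sham, KO-Sham, WT-MI and KO-MI. Its part in these values was not tested.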

How the data were processed

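Nuclei of 4 pooled-heart libraries were sequenced with the 10x Genomics 3′ chemistry (version 2 in the labels, version 3 in the methods). The authors aligned reads to mm10 with Cell Ranger, removed doublets with Scrublet, kept nuclei with 200 to 2500 genes, and integrated, clustered and labelled them with Seurat 3. The deposited matrix holds UMI counts per gene and nucleus, not normalised. The deposited metadata give the percent of mitochondrial UMIs and the label transfer scores, each a fraction from 0 to 1. No doublet caller was run here. The summed UMIs equalled the deposited count in 100% of nuclei, 2 deposited columns were not used, and 0 columns belonged to other series.

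Members, classes and the 26 gene lists were chosen with earlier results of these data known. UMIs were summed per library and class and scaled to CPM, and ratios were taken between means over the 4 libraries, each weighted equally. A gene was called at 2-fold or more, with the same direction in 4 of 4 libraries and at least 50 UMIs over both classes; list members needed 20. Counting intervals were exact Poisson, Clopper-Pearson or conditional binomial 95% intervals, and a count of 0 was bounded by 3 UMIs. The smallest total was 33911 UMIs, in 10 nuclei of KO-MI. The procedure was tested on simulated data. Thinning to 1000 UMIs left out 0 CM4/CM1, 6 CM4/CM4 and 1 CM1/CM1 nuclei. Gene positions were taken from GENCODE release M21 (GRCm38), in which 98.0% of the 22574 symbols were found. Named genes were the 3 given markers, the 10 highest and 10 lowest called ratios in each comparison, up to 3 members of each list with the most UMIs, genes named by the study, and the 5 highest and lowest ratios per condition that kept their direction in both genotypes or surgeries, with 30 or more UMIs; 1 of these genes is not reported here. Alternatives were TMM scaling, thinning, summing over libraries, other minimums, and leaving out each library, the mitochondrial genome, hemoglobin-rich nuclei or the leading nucleus. Python 3.11.15, numpy 2.4.6, scipy 1.17.1, pandas 2.3.3 and matplotlib 3.10.9 were used.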

Additional observations from a re-analysis of the deposited data

Results flagged for a closer look

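In CM4/CM1 nuclei, 5 gene lists had opposite signs under the same contrast in the 2 genotypes or the 2 surgeries. Each value is a log2 ratio of summed CPM between 2 single libraries, KO-MI holds 10 nuclei, and none of the differences was tested. The signs were mostly shared with CM4/CM4 nuclei, where all 5 lists also had opposite signs for KO over WT in the 2 surgeries. For MI over Sham, nuclear long RNAs and sarcomere genes (-0.22 in WT, 0.21 in KO) also had opposite signs there. Cytosolic ribosome genes did not, being higher after MI in both genotypes of CM4/CM4.

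Respiratory chain genes were at -0.0674 for KO over WT in Sham and 0.79 in MI. Fatty acid oxidation genes were at -0.16 in Sham and 0.59 in MI for the same contrast. Cytosolic ribosome genes were at -0.31 for MI over Sham in WT and 0.65 in KO, and at -0.32 for KO over WT in Sham and 0.64 in MI. Sarcomere genes were at -0.40 for MI over Sham in WT and 0.45 in KO, where TMM scaling gave -0.068 and so the same sign in both genotypes. The KO value was 0.24 without the nucleus with most of these UMIs in each library. They were also at -0.19 for KO over WT in Sham and 0.66 in MI. Nuclear long RNAs went the other way, at 1.32 for MI over Sham in WT and -0.28 in KO, and at 0.91 for KO over WT in Sham and -0.69 in MI. In KO-MI 33.3% of the respiratory chain UMIs came from 1 nucleus, and its part in these values was not tested beyond leaving it out. Under TMM scaling the Sham values of respiratory chain, sarcomere and fatty acid oxidation genes for KO over WT became 0.18, 0.05 and 0.08.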

How the results depend on the processing

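Of the values that answer a comparison, 245 kept their direction and size under the alternatives, 36 moved and 3 reversed; of the others 2613, 203 and 31. For MI over Sham and KO over WT no paired analysis was possible, because the labels give 1 library per group and no replicate numbers. The classes shared the same 4 libraries. Their ratios were taken between means over libraries, so 1 library can dominate a ratio, and the direction within each library entered the calls. The minimums of 60 CPM, the removal of hemoglobin-rich nuclei and the removal of the leading nucleus were chosen after seeing the data. Depth limits genes with few UMIs in CM4/CM1 nuclei, and KO-MI most of all. The causes were not tested.

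Against CM4/CM4, 65 higher calls became 43 on thinning, 26 with TMM, 37 with UMIs summed over libraries, 141 at a minimum of 20 UMIs and 37 at 60 CPM, and lay between 68 and 90 with a library left out. The 215 lower calls became 96, 537 and 40 on thinning, at 20 UMIs and at 60 CPM, 305 with TMM, and 209 to 238 with a library left out. The thinned calls shared 10 higher and 24 lower genes with the full counts. Against CM1/CM1, 526 higher calls became 302 on thinning, 192 with TMM and 283 at 60 CPM, and 551 to 859 with a library left out (859 without KO-Sham). The 1145 lower calls became 1757 with TMM, 250 at 60 CPM and 1243 to 1718 with a library left out (1718 without WT-MI).

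With TMM, lists over CM4/CM4 moved to -0.25 (sarcomere), -0.88 (fibroblast) and -0.31 (mitochondrial genome), genes of 30 to 100 kb to -0.0493, and over CM1/CM1 fibroblast genes to 0.44 and myeloid genes to -0.0381. Thinning gave -0.55 for fibroblast genes over CM4/CM4 and 0.14 for endocardial genes over CM1/CM1, which were at 0.0574 without the mitochondrial genome and 0.0517 without hemoglobin-rich nuclei. Red blood cell genes without hemoglobin-rich nuclei were at -0.52 and 0.52. With UMIs summed over libraries, myeloid genes over CM1/CM1 were at -0.0321, and atrial and injury genes over CM4/CM4 at -0.0302 and -0.15.

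With a library left out, lists over CM4/CM4 ranged from -0.91 (without WT-MI) to 1.48 for leading CM4 genes, -0.55 (without WT-MI) to 1.93 for early response, -0.37 (without WT-MI) to 0.92 for neural crest, -0.0772 (without WT-MI) to 0.37 for Y chromosome, -0.0073 (without KO-MI) to 0.60 for mural, -0.19 (without KO-MI) to 1.07 for atrial, -0.0309 (without KO-MI) to 0.63 for injury and -0.62 to 0.0292 (without WT-Sham) for epicardial genes. Over CM1/CM1 they ranged from -0.13 to 0.12 (without KO-MI) for endocardial and -0.40 (without WT-MI) to 0.66 for neural crest genes.

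The share in KO-Sham was 21.1% at a transfer score of 0.5 or more. Places on the axis became 45.5% and 45.3% with 4-fold to choose the higher genes. Injury genes for MI over Sham in KO were at 3.19 thinned, 3.36 with TMM and 2.95 without the leading nucleus, and for KO over WT in MI at 0.23, 0.69 and -0.0473. Respiratory chain genes for MI over Sham were at -0.91 thinned in WT, and in KO at -0.35, -0.74 and -0.46; for KO over WT in MI they were at 0.54, 0.56 and 0.55, and in Sham at 0.18 with TMM. TMM also reversed mitochondrial genome (0.13), sarcomere (0.0536) and fatty acid oxidation genes (0.0801) for KO over WT in Sham, and sarcomere genes (-0.068) for MI over Sham in KO.

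Over CM1/CM1 with a library left out, 0610009B22Rik ranged from -1.54 to 0.50, Ctsh from -2.20 to 0.0772 and Sox18 from -1.80 to 0.77, each above 0 without KO-Sham. Thinned, Aagab was at 0.0665, Col4a6 at 0.0528, Ctsh at 0.20, Mus81 at 0.0273 and Ttf1 at 0.00955, and Ccn2 for KO over WT in MI at -0.0809.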
